A study of Mus musculus with 51 samples.

Results

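Kap, the kidney androgen-regulated protein, is 1 of 16099 genes in an expression table of fetal mouse kidney. Its row was read in 51 poly-A RNA-seq libraries of wild-type C57BL/6 kidneys collected every 4 h at 13 time points. Time is given as hours of the series, and by the labels CT0 fell on embryonic day 18, CT24 a day after it and CT48 on embryonic day 20, while the design text names a later end. There were 4 libraries at each time point except CT20, which had 3. Neither a treatment nor an engineered allele is named, and no dam, litter, pooling or fetal sex is given, so the p-values below measure the spread between these samples. Library numbering separated CT0 to CT24 (27 libraries) from CT28 to CT48 (24 libraries). Kap was picked from these values as a proximal tubule gene with a large rise, so its own levels are a description with no test.

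Kap encodes a small secreted protein of the proximal tubule, the stretch of the nephron that reclaims filtered glucose, amino acids and phosphate. In adult mouse kidney its mRNA is abundant and is induced by androgen, and other hormones, thyroid hormone among them, have also been tied to its expression. Androgens are steroids that act on the transcription of their target genes. The KAP protein binds cyclophilin B, a prolyl isomerase encoded by Ppib.

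Kap (ENSMUSG00000032758.4) is a protein-coding gene on the minus strand of chromosome 6, from 133849851 to 133853762 in GRCm38, the build also called mm10. GENCODE M21 gives it 2 transcripts of 4 exons each and 707 bases of merged exon, and no other annotated gene overlaps it. The sequence before its start is shown because the hormone motifs looked for below would lie in it. GENCODE starts the transcripts at 133853673 and 133853762, and the RefSeq start (133853667) lies near the first of these and 95 bases from the outermost. The bases upstream of all 3 starts, at chr6:133853763-133853917, and a 30-base window before the RefSeq start, at chr6:133853681-133853710, read as follows on the minus strand, 5′ to 3′, from RefSeq sequence of GRCm38.p6. Capitals mark letters that match the C/EBP motif in the upstream stretch and the TATA box in the window.
Kap upstream: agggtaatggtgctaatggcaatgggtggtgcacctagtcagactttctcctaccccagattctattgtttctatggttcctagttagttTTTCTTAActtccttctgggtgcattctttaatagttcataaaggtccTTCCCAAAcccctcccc
Kap TATA window: gagtacaggatgTATAAAagcccaggagga

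Motifs were searched on both strands in the window from 250 bases before to 50 bases after the RefSeq start, and the matches did not overlap each other. The TATA box (TATAAA) was present 1 time in Kap and in 13.6% of 32851 promoters of this length. The C/EBP motif (TTNNGNAA) was present 2 times in Kap and in 40.7% of promoters. TGTTCT, the core of an androgen response element, had 0 matches in Kap and was in 18.97% of promoters. GTTAAT, the core of an HNF1 site, had 0 matches in Kap and was in 7.10% of promoters. A letter match is not a binding site, and its absence here covers this window only.

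The deposited values are whole numbers that had been normalised before they were rounded, with library totals of 34226024 to 35711911. Sequencing depth is therefore unknown, and precision rests on the spread between libraries. The CT28 and CT32 libraries had the highest totals, from 35225077 to 35711911, and no other library exceeded 35076366. CT28 is the start of the comparison with CT48 below, and what set these totals apart was not tested. With equal library sums the log2 difference of Kap, CT48 minus CT28, was 1.09, against 1.05 as deposited. The mean of each gene was nearly the same in both library series, and over 12274 genes the log2 differences had an SD of 0.0171. For Kap this difference (CT28 to CT48 minus CT0 to CT24) was 0.0021. Kap averaged 8262 over CT0 to CT24 and 8211 over CT28 to CT48. With the means of nearly all genes this alike, the values cannot show whether Kap differed in level between the series. The step from CT24 to CT28 cannot be read either, and levels were compared only within a library series.

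In the first library series the mean of Kap was lowest at CT0 and highest at CT24, more than 2-fold above that of CT0. The 4 libraries of CT24 had normalised values of 9575, 13867, 9066 and 13310, against 5554, 4402, 4659 and 5157 in the 4 libraries of CT0. Every CT24 library was above every CT0 library, as it was for 14.8% of the 14426 genes with a mean of at least 10. Kap averaged 11454.5 ± 2483 at CT24 and 4943 ± 514 at CT0 (SD, n = 4 each), a ratio of means of 2.32. On the log2(value + 1) scale the difference, CT24 minus CT0, was 1.19 ± 0.18 (SE). This placed Kap at rank 35 among the rises of 14426 genes.

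The libraries between these times did not climb steadily. Kap read 8525, 6118, 6681 and 6225 at CT4, all above the CT0 libraries. It then read 5871, 10521, 10436 and 8047 at CT8. At CT12 the values were 11469, 8137, 8204 and 7466, so CT8 and CT12 overlapped. Kap read 9679, 4644, 6779 and 5672 at CT16, where 1 library lay among those of CT0. The mean of 6694 ± 2173 (SD, n = 4) at CT16 was the lowest of the series after that of CT0. At CT20 Kap stood at 8984, 12883 and 11132, close to the CT24 libraries. Of the 21 pairs of time points in CT0 to CT24, 7 had libraries that did not overlap.

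In the second library series Kap again started low and was higher at the end, with its highest means at CT36 and CT48. The libraries of CT48 had normalised values of 11410, 7739, 12115 and 10597, against 4764, 5341, 5655 and 4235 in those of CT28. Every CT48 library was above every CT28 library, as it was for 23% of the 14426 genes. Kap averaged 10465 ± 1920 at CT48 and 4999 ± 629 at CT28 (SD, n = 4 each), a ratio of 2.09. The log2 difference, CT48 minus CT28, was 1.05 ± 0.17 (SE), at rank 385 of 14426 rises. Most of this difference was already there at CT36, and CT48 minus CT36 was -0.00096 ± 0.16 (SE).

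The values between CT28 and CT48 also rose and dropped. Kap read 8694, 5698, 5438 and 6879 at CT32, with 1 library below the highest of CT28. It read 11834, 9653, 10544 and 9437 at CT36, all above CT32. At CT40 the values were 7130, 5384, 9131 and 8345, all below CT36. They were 7955, 8116, 12490 and 8483 at CT44, and the third of these libraries stood far above the other 3. Of the 15 pairs of time points in CT28 to CT48, 5 had libraries that did not overlap.

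Ranked by mean, the first series ran CT0, CT16, CT4, CT8, CT12, CT20 and CT24, from lowest to highest. The second ran CT28, CT32, CT40, CT44, CT36 and CT48. Every pair of neighbours in either order overlapped, so no single step in these orders exceeded the spread between libraries. CT0 lay apart from every other time point of its series except CT16, and CT28 lay apart from CT36, CT44 and CT48.

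**Figure D1:**
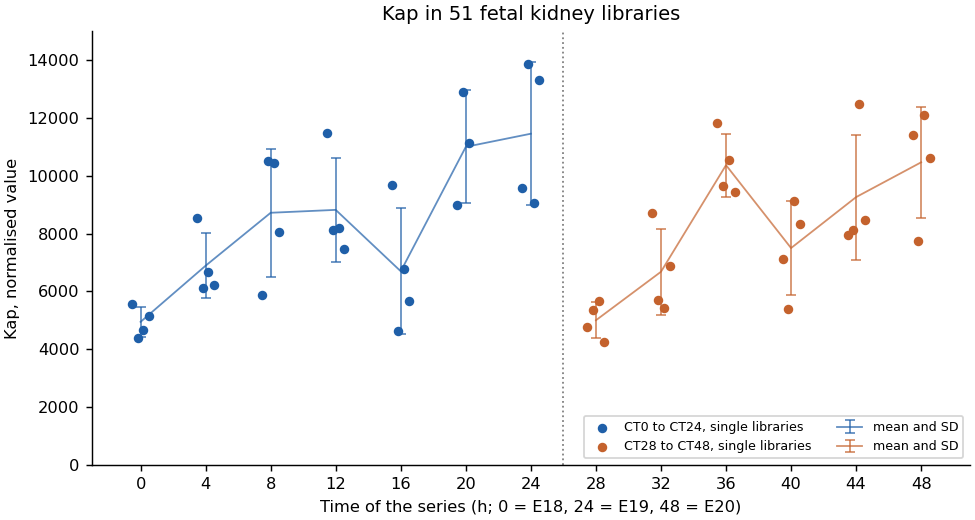
Normalised value of Kap (vertical axis, no unit) against hours of the series, with 1 point per library and the mean and SD of each time point. The dotted line separates the library series. CT0 and CT28 sit lowest in their series, and the libraries of CT8 and CT16 are spread widely.

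Libraries of the same time point differed more for Kap than for most genes of like level. The coefficient of variation of Kap lay between 10.4% and 32.5% over the time points of CT0 to CT24, and between 10.5% and 23.4% over those of CT28 to CT48. The pooled SD within time points was 0.313 on the log2 scale in CT0 to CT24. Of the 1822 genes within 2-fold of the mean of Kap, 99.9% had a smaller one, and their median was 0.0529. In CT28 to CT48 it was 0.271, above 99.4% of 1851 such genes, whose median was 0.0840. In the list of 36 proximal tubule genes, 1 had a larger SD than Kap in the first series and 10 did in the second.

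Per kilobase of merged exon, Kap was among the highest genes of these kidneys. It averaged 11652 per kilobase of exon over the 51 libraries, at place 76 of 14303 genes, next to the ribosomal protein genes Rpl13 (11697) and Rpl6 (11612). The merged exons span 707 bases for Kap, against 2595 for Rpl13 and 3140 for Rpl6. Merged length counts every annotated exon, so it can exceed that of a single transcript and lower the value. These places therefore depend on the annotation and do not show equal transcript numbers. Single libraries put Kap between rank 32 and rank 209. Within time points, the rank ran from 32 to 66 at CT24, against 143 to 182 at CT0. It ran from 36 to 71 at CT48, against 156 to 209 at CT28. Of Kap and the 36 proximal tubule genes Kap was the highest per kilobase, ahead of Spp2, a secreted phosphoprotein (11274 per kilobase), and Fbp1, a gluconeogenic enzyme (9909 per kilobase). Kap led these genes in 29 of 51 libraries and Spp2 in the other 22.

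**Figure D2:**
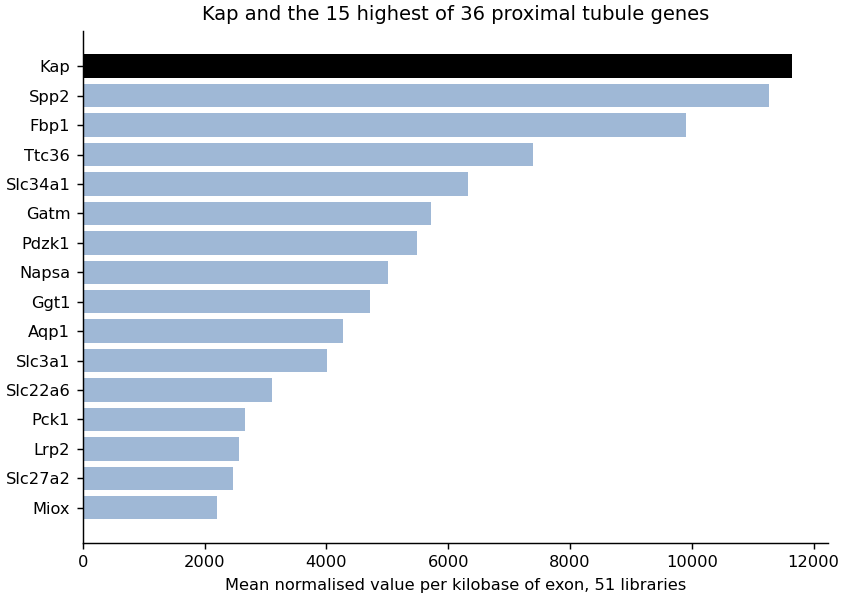
Mean normalised value per kilobase of exon over 51 libraries (horizontal axis, starting at 0) for Kap, in black, and the 15 highest of 36 proximal tubule genes. Kap at 11652 and Spp2 at 11274 are close, with Fbp1 at 9909.

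The proximal tubule genes as a group were higher at the end of both library series. Kap was picked for a large rise among such genes, so its place above most of them describes that choice and is no finding. In limma's test with Benjamini-Hochberg adjustment over 14426 genes, 30 of 36 rose at CT24 against CT0 and 0 fell, while 14.3% of all genes were called higher and 12.2% lower. The list's median log2 difference was 0.42, against 0.0011 for all genes tested. At CT48 against CT28, 23 of 36 rose and 1 fell, while 25.7% of all genes were called higher and 28.1% lower. The median was 0.44, against -0.013 for all genes. Quantile scaling turned the balance over all genes, to 1819 higher and 2237 lower at CT24 against CT0 (2070 and 1762 as deposited), and to 3876 and 3829 at CT48 against CT28 (3710 and 4059 as deposited). With CT36 in place of CT28 as the start, limma called 0 of 36, with 4 at an unadjusted p under 0.05. In bulk kidney, more cells of a type and more RNA per cell cannot be told apart.

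Among the list members with the largest differences, Pck1, which starts gluconeogenesis, had 11176, 15697, 11413 and 11848 in CT24 libraries, against 7133, 5366, 6699 and 7564 in CT0 libraries (log2 difference 0.90 ± 0.15 SE, limma adjusted p = 0.000108). The CT24 and CT0 libraries of Pck1 did not overlap. G6pc, which releases free glucose, differed by 0.78 at CT24 against CT0 and by 3.28 at CT48 against CT28 (limma adjusted p = 0.00302 and 1.54e-08). Slc6a19, the neutral amino acid transporter of the early segment, differed by 0.73 and 2.30 in these comparisons. The urate transporter gene Slc17a3 rose by 0.40 at CT24 against CT0 and fell by 1.32 at CT48 against CT28. Of the 36 list members, 0 had a larger rise than Kap, which was picked for its rise, at CT24 against CT0. At CT48 against CT28, 4 did, namely Slc13a1, Slc6a19, Pck1 and G6pc.

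Kap is placed by earlier work in several segments of the proximal tubule, so early and late segment genes were read apart. Of 7 early segment genes, 5 rose at CT24 against CT0 and 4 at CT48 against CT28, with 0 falling in either (of all genes, 14.3% and 25.7% were called higher). The amino acid transporter genes Slc7a7 (0.55 and 1.18) and Slc7a8 (0.30 and 0.81) and the lactate transporter gene Slc5a12 (0.34 and 0.77) rose in both. Of 9 late segment genes, 6 rose and 0 fell at CT24 against CT0, and 3 rose and 2 fell at CT48 against CT28, where 25.7% of all genes were called higher and 28.1% lower. The late segment counts at CT48 against CT28 were thus near those shares. Slc1a1, a glutamate transporter gene, rose by 0.46 and 1.01, and Slc22a8, an organic anion transporter gene, by 0.38 and 0.50. Slc7a13, a cystine transporter subunit gene, differed by 0.13 at CT24 against CT0 and fell by 1.14 at CT48 against CT28. Slc6a18, an amino acid transporter gene, rose by 0.46 and then fell by 0.31.

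Set against the proximal tubule list, Kap gained level over each series, as its choice for a large rise implies. Kap minus the list's mean was 1.14 at CT24, against 0.39 at CT0, on the log2(value + 1) scale. It was 0.98 at CT48, against 0.42 at CT28. At CT16 Kap lay 0.28 below its series mean while the list lay 0.01 above its own. At CT40 both were below their series means, Kap by 0.09 and the list by 0.15.

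**Figure D3:**
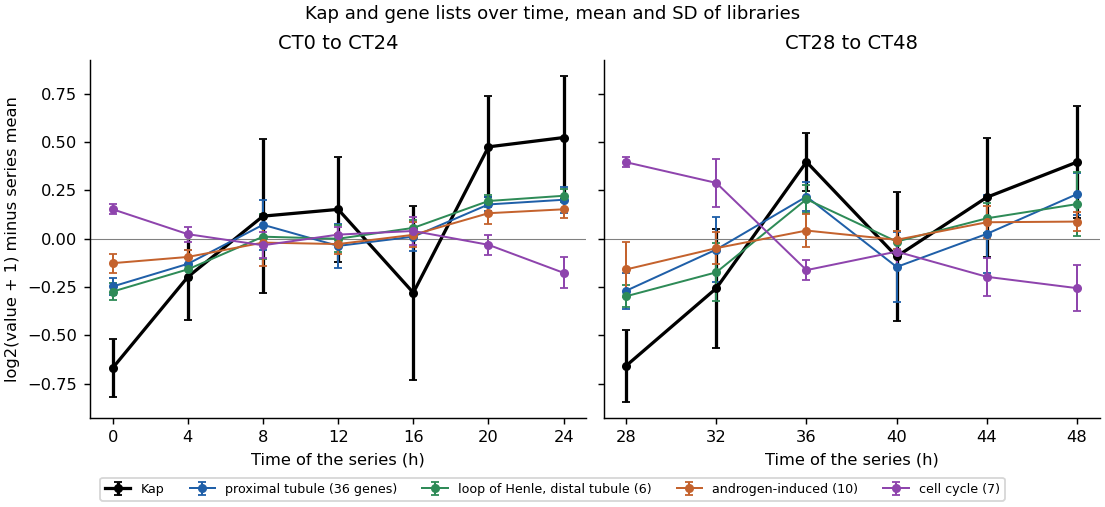
Mean and SD over libraries of log2(value + 1) minus the series mean (vertical axis) against hours, for Kap and 4 gene lists, with CT0 to CT24 on the left and CT28 to CT48 on the right. Kap spans the widest range in CT0 to CT24, between -0.67 at CT0 and 0.52 at CT24, and the cell cycle list starts high and ends low in both panels.

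Some androgen-induced genes of adult mouse kidney rose, and only Odc1 was called as falling. Of 12 on the list, 10 passed the minimum mean of 10, and 4 of these rose and 1 fell at CT24 against CT0 (14.3% and 12.2% of all genes). At CT48 against CT28, 3 rose and 1 fell (25.7% and 28.1% of all genes). The count of falls at CT24 and the count of rises at CT48 were near those shares. The list's medians were 0.18 and 0.06. Agt, which encodes angiotensinogen, had 489, 539, 468 and 503 in CT24 libraries, against 274, 233, 218 and 278 in CT0 libraries (1.00 ± 0.13 SE, limma adjusted p = 3.96e-06). It had 530, 652, 574 and 547 in CT48 libraries, against 92 to 146 in CT28 libraries (2.28 ± 0.21 SE, limma adjusted p = 2.03e-09). The libraries of Agt did not overlap in either comparison.

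The other list members were mixed. Cyp2e1, a cytochrome P450 gene, rose by 0.80 at CT24 against CT0, and its difference at CT48 against CT28 was -0.12 (limma adjusted p = 0.495). Adh1, an alcohol dehydrogenase gene, rose by 0.54 and 0.66, and Slc22a6, an organic anion transporter gene that is also on the proximal tubule lists, by 0.36 and 0.28. Odc1, the rate-limiting enzyme of polyamine synthesis, fell by 0.11 and by 0.52. Gusb, which encodes beta-glucuronidase, had 2284, 2057, 2093 and 2245 in CT24 libraries, against 2185, 2104, 2129 and 2154 in CT0 libraries (limma adjusted p = 0.800). Slco1a1 and Cyp4a12a, which are high in adult male kidney, had means of 2.55 and 1.73 and were at 0 in 10 and 20 of 51 libraries.

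The 4 genes known to be lower in adult male than in adult female mouse kidney also had risers, 3 of 4 at CT24 against CT0 and 2 of 4 at CT48 against CT28, where 14.3% and 25.7% of all genes were called higher. Cyp4a14, a fatty acid hydroxylase gene, averaged 106.75 ± 38.0 in CT24 libraries, with the lowest at 54, and 33.3 ± 5.56 in CT0 libraries, with the highest at 40 (SD, n = 4 each, 1.58 ± 0.26 SE, limma adjusted p = 5.29e-05). It differed by 4.53 at CT48 against CT28, with means of 236 and 9.25, so this difference rests on a low starting value. Close copies of Cyp4a14 also make its single-gene value uncertain. The transporter gene Abcc3 rose by 0.26 and 0.64, and Prlr, the prolactin receptor gene, by 0.38 with -0.09 at CT48 against CT28. Slc7a12, an amino acid transporter gene, fell by 0.90 at CT48 against CT28 after a difference of 0.15 at CT24 against CT0.

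Esr1, the estrogen receptor alpha gene, had 311, 291, 282 and 307 in CT24 libraries, against 218, 257, 241 and 250 in CT0 libraries (0.30 ± 0.07 SE, limma adjusted p = 0.000827). Its difference at CT48 against CT28 was 0.23 ± 0.18 (SE, limma adjusted p = 0.289).

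**Figure D4:**
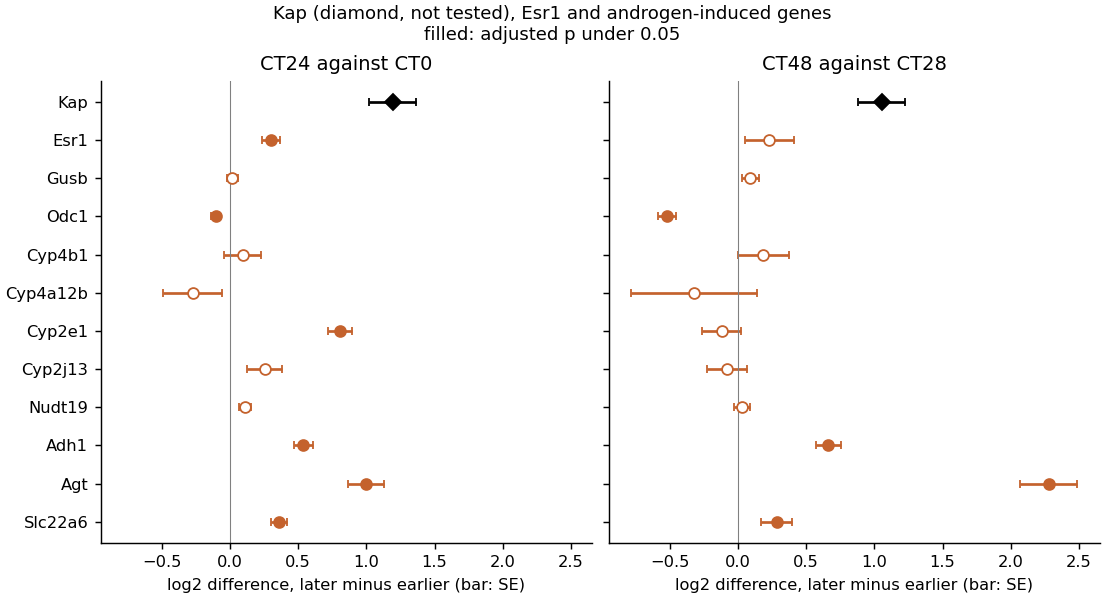
Log2 difference with its SE (horizontal axis) for Kap, Esr1 and the 10 androgen-induced genes tested, CT24 against CT0 on the left and CT48 against CT28 on the right. Filled circles passed the limma threshold, and the diamond of Kap carries no test. Kap lies at 1.19 and 1.05, near Agt on the left (1.00) and below it on the right (2.28).

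Of 14 hormone receptor genes, 3 rose and 0 fell at CT24 against CT0, and 7 rose and 1 fell at CT48 against CT28. The shares of all genes were 14.3% higher and 12.2% lower at CT24 against CT0, near the receptor counts, and 25.7% higher and 28.1% lower at CT48 against CT28. Vdr, the vitamin D receptor gene, rose by 0.40 and 1.11, and Thrb, a thyroid hormone receptor gene, by 0.22 and 0.62 (limma adjusted p = 0.0488 and 0.00185). Esr2, the estrogen receptor beta gene, differed by 0.10 and rose by 0.77 (limma adjusted p = 0.571 and 0.0390). Rxrg, a retinoid X receptor gene, differed by -0.06 and fell by 1.19. Of 8 genes for chaperones and cofactors of steroid hormone receptors, 2 rose and 1 fell at CT24 against CT0, and 7 rose and 1 fell at CT48 against CT28, and the CT24 counts were near those shares of all genes. The chaperone gene Fkbp4 fell in both, by 0.17 and 0.62, and Ncoa1, a coactivator gene, rose by 0.14 and 0.61. Fkbp5, which glucocorticoid and androgen induce, differed by -0.05 and rose by 1.08, and the coactivator gene Ncoa4 differed by 0.03 and rose by 0.68.

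Of 15 genes of steroid synthesis and conversion that were tested, 3 rose and 1 fell at CT24 against CT0, and 7 rose and 3 fell at CT48 against CT28. Of all genes, 14.3% were called higher and 12.2% lower at CT24 against CT0, and 25.7% higher and 28.1% lower at CT48 against CT28, so the CT24 counts were near the background. Hsd17b2, which turns testosterone into the weaker androstenedione, rose by 0.87 and 0.84, and Hsd11b1, which regenerates active glucocorticoid, by 0.70 with 0.21 at CT48 against CT28. Star, a cholesterol carrier of steroid-making cells, differed by 0.08 and rose by 0.62. Hsd17b10, a mitochondrial dehydrogenase gene, differed by -0.02 and fell by 0.61. Of 11 genes that respond to thyroid or growth hormone, 3 rose at CT24 against CT0 and 8 at CT48 against CT28, with 0 falling in either. Klf9, a thyroid hormone and glucocorticoid target, rose by 0.29 and 1.64. Its CT48 values of 3985, 2577, 1965 and 1451 were widely spread, against 696, 769, 738 and 782 at CT28. Dio1, which activates thyroid hormone, differed by 0.24 and rose by 1.35, with values no higher than 71 at CT48. Stat5a, a growth hormone signalling factor, differed by 0.13 and rose by 0.97, and Hr, a thyroid hormone target, differed by 0.11 and rose by 0.87.

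Of 12 transcription factor genes of the proximal tubule, 4 rose and 0 fell at CT24 against CT0, and 8 rose and 1 fell at CT48 against CT28. For this list and the next, the shares of all genes were 14.3% higher and 12.2% lower at CT24 against CT0, and 25.7% higher and 28.1% lower at CT48 against CT28. Ppara, a regulator of fatty acid oxidation, rose by 0.47 and 0.89, and Cebpd, a C/EBP family member, by 0.43 and 1.23. Cebpb, another member, differed by 0.13 and rose by 1.18. Nr1h4, the bile acid receptor gene, differed by 0.37 (limma adjusted p = 0.0591) and rose by 1.62. Of 8 cyclophilin genes, 0 rose and 3 fell at CT24 against CT0, and 1 rose and 6 fell at CT48 against CT28. Ppib, which encodes the partner of KAP, had 12886, 12582, 12309 and 12884 in CT24 libraries, against 13593, 13009, 13620 and 12840 in CT0 libraries (-0.07 ± 0.04 SE, limma adjusted p = 0.198). It fell by 0.38 at CT48 against CT28 (limma adjusted p = 2.02e-06). Ppid, Ppil1 and Ppih fell in both comparisons, and Ppia fell by 0.61 at CT48 against CT28.

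Other genes were ranked by how closely their pattern followed that of Kap. Likeness was the mean of the Pearson correlations with Kap over the 27 and the 24 libraries, for the 12273 genes averaging at least 100. The libraries share time, normalisation and kidney makeup, so the values are a description. The median gene had -0.02, and 189 genes (1.54%) exceeded 0.7. The genes named below were ranked among 11618 of these. Predicted gene models, pseudogenes and genes annotated to the X or Y chromosome were left out. Symbols absent from GENCODE M21 could not be checked for pseudogenes or chromosome and were kept unless named as predicted models. The 10 highest were Acss1 (0.86), Fmo2 (0.85), Fuca2 (0.85), Cryl1 (0.85), Slc1a1 (0.85), Pyroxd2 (0.84), Umod (0.84), Fbp1 (0.84), Dpep1 (0.84) and Acsm5 (0.84). Acss1 makes acetyl-CoA in mitochondria, Fmo2 is a flavin monooxygenase, Fuca2 a fucosidase and Dpep1 a brush border dipeptidase. Umod encodes uromodulin, a protein of the thick ascending limb rather than the proximal tubule.

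In the promoters of these 10 genes TGTTCT was found in 2 (Fmo2 and Pyroxd2), TATAAA in 0, the C/EBP motif in 4 and GTTAAT in 1 (Umod). Of all 32851 promoters, 18.97%, 13.6%, 40.7% and 7.10% had these matches, so the counts were near the background. A gene was counted if any of its promoters matched, while the shares are per promoter. The 5 most opposite genes were Pdap1 (-0.79), Pabpc4 (-0.78), Ube2s (-0.77), Dlgap5 (-0.77) and Cdkn2aipnl (-0.76). Ube2s and Dlgap5 act in mitosis, and Pabpc4 binds poly-A tails. Of the proximal tubule list, 13 of the 35 genes with a mean of at least 100 exceeded 0.7, as did 3 of 6 loop of Henle and distal tubule genes. The androgen-induced genes ranged from -0.57 for Odc1 to 0.71 for Agt, with a median of 0.37 over 9 genes.

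The scatter of Kap between libraries of the same time point went with that of proximal tubule genes, but not with theirs alone. Each library's deviation from its time-point mean was compared between Kap and the mean of the proximal tubule list. The Pearson correlation was 0.66 over 27 libraries in CT0 to CT24 and 0.54 over 24 libraries in CT28 to CT48. For the loop of Henle and distal tubule list it was 0.61 in both. For the androgen-induced list it was 0.18 and -0.14. It was 0.48 and 0.34 for steroid synthesis and conversion, 0.41 and 0.30 for the adrenal list, and 0.35 and 0.36 for skeletal muscle. The steroid list shares Star and Cyp11a1 with the adrenal list and Akr1c21 with the proximal tubule list, so these lists are not separate. The thyroid and growth hormone list had 0.50 and 0.07, the hormone receptors -0.06 and 0.52, and the nephron progenitors -0.53 and -0.21. Among the most alike single genes by this measure were Tmem27 (0.78), Miox (0.72), F13b (0.71) and Acss1 (0.71). Tmem27 encodes collectrin, a partner of amino acid transporters, and Miox breaks down inositol.

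**Figure D5:**
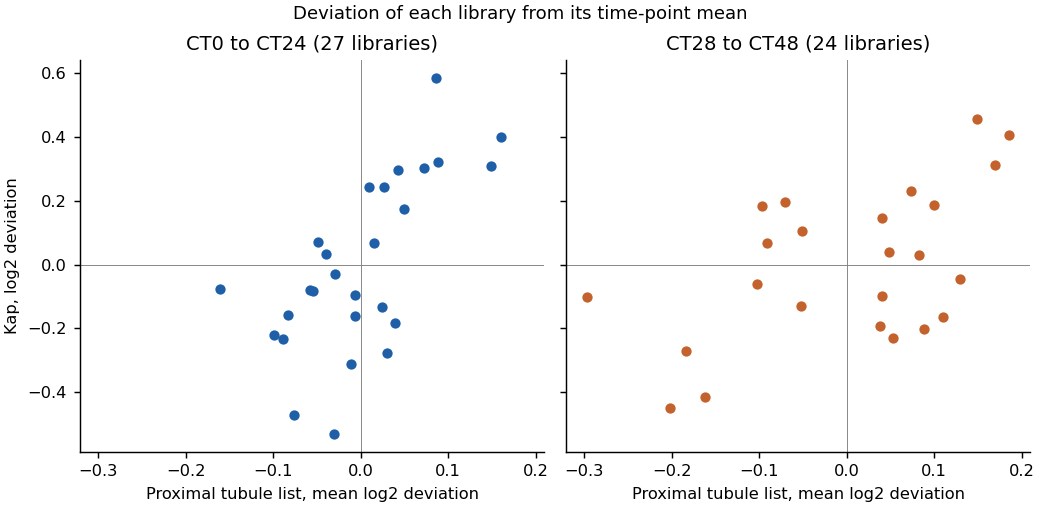
Log2 deviation of Kap from its time-point mean (vertical axis) against that of the mean of 36 proximal tubule genes (horizontal axis), with 1 point per library. The points slope upward in both library series, with correlations of 0.66 (left, 27 libraries) and 0.54 (right, 24 libraries), and Kap deviates over a wider range than the list.

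Markers of other cells moved over the same times, while 14.3% of all genes were called higher and 12.2% lower at CT24 against CT0, and 25.7% higher and 28.1% lower at CT48 against CT28. All 6 genes tested from the loop of Henle and the distal tubule rose at CT24 against CT0, with the list's mean log2 level from 12.46 to 12.54 in CT24 libraries, against 11.94 to 12.05 in CT0 libraries. At CT48 against CT28, 4 rose and 2 fell (12.19 to 12.53 in CT48 libraries, against 11.90 to 12.03 in CT28 libraries). Umod rose by 0.97 and 1.09. All 7 cell cycle genes fell in both comparisons, Bub1 by 0.42 and 0.95. The mean log2 level of the cell cycle list was 11.90 to 12.10 in CT24 libraries, against 12.30 to 12.36 in CT0 libraries, and 11.75 to 12.04 in CT48 libraries, against 12.53 to 12.59 in CT28 libraries. Of 6 nephron progenitor genes, 4 fell at CT24 against CT0, and 3 fell and 1 rose at CT48 against CT28. Of 7 collecting duct genes, 5 rose at CT24 against CT0, and 4 rose and 1 fell at CT48 against CT28, with Aqp2, a water channel gene, up by 0.76 and 0.51. The part of these cell types in the values of Kap was not tested.

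Of 6 liver genes, 1 rose at CT24 against CT0 and 3 at CT48 against CT28 (14.3% and 25.7% of all genes), 0 fell, and the list's level lay from 7.78 to 9.93 in CT24 libraries, against 7.70 to 8.87 in CT0 libraries. Ttr, which encodes the thyroid hormone carrier transthyretin, rose by 1.21 and 1.18. Of 3 tested adrenal genes 0 passed at CT24 against CT0 in limma, with 1 at an unadjusted p under 0.05, and 2 rose at CT48 against CT28. The adrenal cortex gene Cyp11b1 was at 0 in 27 of 51 libraries. Of 4 Y-linked genes 0 passed at CT24 against CT0, with 0 at an unadjusted p under 0.05. At CT48 against CT28 only 1 of the 4 passed, Kdm5d, which fell by 0.67. This was near the 28.1% of all genes called lower. All 4 were above 0 in every library (Uty between 58 and 253), and deviations of their mean correlated with those of Kap at -0.26 and -0.16.

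The remaining lists are read against 26.6% of all genes called in either direction at CT24 against CT0 and 53.9% at CT48 against CT28. Of 7 podocyte genes, 4 rose and 1 fell at CT24 against CT0, and 3 rose and 2 fell at CT48 against CT28, the last near the background. Of 6 stromal genes, 0 rose and 3 fell at CT24 against CT0, and 4 rose and 1 fell at CT48 against CT28. Of 5 endothelial genes, 2 rose and 0 fell, and then 4 rose and 1 fell, with Plvap up by 0.22 and 0.42. Of 5 skeletal muscle genes Actn3 alone passed, and it fell by 0.35 and 0.99. Of 5 erythroid genes Slc4a1 rose by 0.42 at CT24 against CT0 and Alas2 fell by 1.03 at CT48 against CT28. Of the adipose genes only Fabp4 had a mean of at least 10, and it fell by 0.83 at CT48 against CT28. Of 3 tested gonad genes limma called 0 in either comparison, with 0 at an unadjusted p under 0.05.

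The authors' deposited table of rhythm tests gives Kap a combined q-value of 0.610, with a period of 28 h, a phase of 16.4 h and an amplitude of 1105 around a base of 8241. Of its 16099 genes, 6647 (41.3%) have a q-value under 0.05.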

How the data were processed

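Fetal kidney libraries of 13 time points were assigned to time points from their titles. TruSeq libraries of poly-A RNA were sequenced, per the labels' protocols. The submitters' processing notes list STAR 2.5.2b, featureCounts 1.5.0-p3 and bcl2fastq, with mm10 as the build. Annotation, normalisation and strand setting were, in the sources used here, not given. The authors' deposited expression table was read as a score: whole numbers normalised before rounding, judged from the values, so depth is unknown and no counting interval was computed. The authors' other deposited table holds rhythm p-values and q-values with period, phase and amplitude scores, per the file headers, and the deposited periods, phases and amplitudes were used only where that table is named.

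Each library series was fitted alone in limma 3.58.1 (R 4.3.3), with 1 mean of log2(value + 1) per time point, robust moderation and a mean-variance trend, over 14426 genes with a mean of at least 10. Fold changes on this scale understate changes of low genes. The threshold was a Benjamini-Hochberg adjusted p under 0.05 over all genes tested, and the fit was tested on simulated data. Kap, its gene lists and the comparisons were chosen with earlier results of these data known. Named genes are Esr1, up to 4 members of each list with the largest difference past the threshold in either comparison, and the genes most and least like Kap. Slc22a6, Gusb, Slco1a1, Cyp4a12a, Ppib, Uty, Cyp11b1 and members that set a rank or range were named after their values were seen. Values per kilobase use merged exon lengths of GENCODE M21. The fits had no replicate block. Some genes that this rule selects are not reported here. No protein sequence and no Xist value was analysed here.

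The alternatives were pseudocounts of 0.5 and 10, no filter, quantile scaling, equal library sums, other sets of libraries in the fit, a replicate block, another start of the second series, and leaving out single libraries or the pair with another ID prefix.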

Additional observations from a re-analysis of the deposited data

Results flagged for a closer look

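Kap at CT44 had 1 library far from the others of its time point. Replicate 3 read 12490, while the other 3 lay between 7955 and 8483, and the gap to the nearest was 0.884 of the whole range, above Dixon's 95% critical value for 4 samples. Of the 20 groups checked in this way 1 was picked out, and chance picks out about 1 in 20. No label sets this library apart from the other 3.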

How the results depend on the processing

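The direction of Kap and the counts (within 1.5 times) held under other pseudocounts, no filter, quantile scaling, equal library sums (Kap alone), fits of only the time points compared and leaving out the pair of libraries with another ID prefix. Quantile scaling turned the balance of all called genes, to 1819 higher and 2237 lower at CT24 against CT0 and to 3876 and 3829 at CT48 against CT28. With all 51 libraries in one fit, the genes called at CT24 against CT0 numbered 1443, against 3832, and the cause was not tested. With CT36 as the start of the second series, CT48 differed in 1639 genes, against 7769, in 0 of 36 proximal tubule genes (4 at an unadjusted p under 0.05), against 24, and in 1 androgen-induced gene, against 4, and the difference of Kap was -0.00096. With CT32 as the start, chosen after the values were seen, the difference of Kap was 0.65. Leaving out single libraries gave 2918 to 3649 genes, 29 to 31 proximal tubule genes, 4 to 5 androgen-induced genes and a Kap difference of 1.09 to 1.30 at CT24 against CT0. At CT48 against CT28 it gave 7095 to 7590 genes, 18 to 22 proximal tubule genes, 3 to 4 androgen-induced genes and 0.98 to 1.19 for Kap. Same-numbered replicates of the time points compared did not deviate together (correlations between -0.17 and 0.16). Other time points were not checked, so pairing or a shared batch over the series is not excluded. The replicate block gave 4304 and 7878 genes, 30 and 24 proximal tubule genes, and 5 and 3 androgen-induced genes in the comparisons at CT24 and CT48. Unknown depth leaves the error of low genes to the spread between libraries.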
